A study of Mus musculus with 4 samples.

Results

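Tumour-like cells without Ptprc are the barcodes of 4 single-cell libraries that carried tumour markers and no transcript of Ptprc, the gene of the leukocyte surface protein CD45. Kept barcodes had 500 or more genes and no more than 10% mitochondrial UMIs (a UMI is 1 counted transcript molecule). It was taken as tumour-like with 0 UMIs of Ptprc and at least 1 UMI each of at least 2 of the genes Hmga2, Cdkn2a, Dlk1 and Fst. This gave 181 of 23294 kept barcodes, out of 30053 in all. The cells were thus chosen by the counts of these 5 genes, which are described here and not tested.

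The libraries were made from TC-1 tumours grown under the skin of wild-type C57/bl6 mice after injection of 300000 TC-1 cells. When a tumour reached 40 mm² the mice received PBS or a single intraperitoneal dose of cisplatin at 6 mg/kg, a platinum drug that crosslinks DNA. There is 1 library of the PBS group and 1 each of tumours taken 1, 3 and 7 days after cisplatin. The sort for innate lymphoid cells took CD127+ and CD90+ cells that were CD45+ without lineage markers, with 15000 cells loaded for 10x 3′ version 3 chemistry. The PBS library carries no day, and the labels name its source as untreated while its treatment field reads PBS. The number of mice behind each library, and whether tumours were pooled, is not given in the sources used here. With 1 library per group, treatment, day, tumour, sort and library cannot be told apart, and every interval below covers counting error only.

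TC-1 is a line of C57BL/6 lung cells transformed with the E6 and E7 oncogenes of a human papillomavirus and an activated Ras gene. E6 leads to loss of the p53 protein, and E7 binds the retinoblastoma protein and frees E2F transcription factors, which drive genes of DNA synthesis and release Cdkn2a from repression. Activated Ras signals through the MAP kinase cascade and raises its own feedback inhibitors and the ligands of the epidermal growth factor receptor. The gene table covers the mouse genes of mm10, and transcripts of the viral and human transgenes were not analysed here.

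The tumour-like cells numbered 41 in the PBS library, 39 on day 1, 4 on day 3 and 97 on day 7. They made up 0.508% of 8075 kept barcodes after PBS (95% Clopper-Pearson interval 0.365% to 0.688%) and 0.521% of 7484 on day 1 (0.371% to 0.712%). Their share was 0.0806% of 4964 on day 3 (0.0220% to 0.206%) and 3.50% of 2771 on day 7 (2.85% to 4.25%). The day 7 interval lies above the other 3, the day 3 interval below them, and those of PBS and day 1 overlap. Since the sort was meant to remove CD45-negative cells, these shares describe what passed the gate, not the tumour. Without the limit on Ptprc the shares were 1.21%, 1.76%, 0.302% and 4.62% in the same order, so day 7 was the highest and day 3 the lowest under both rules.

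**Figure D1:**
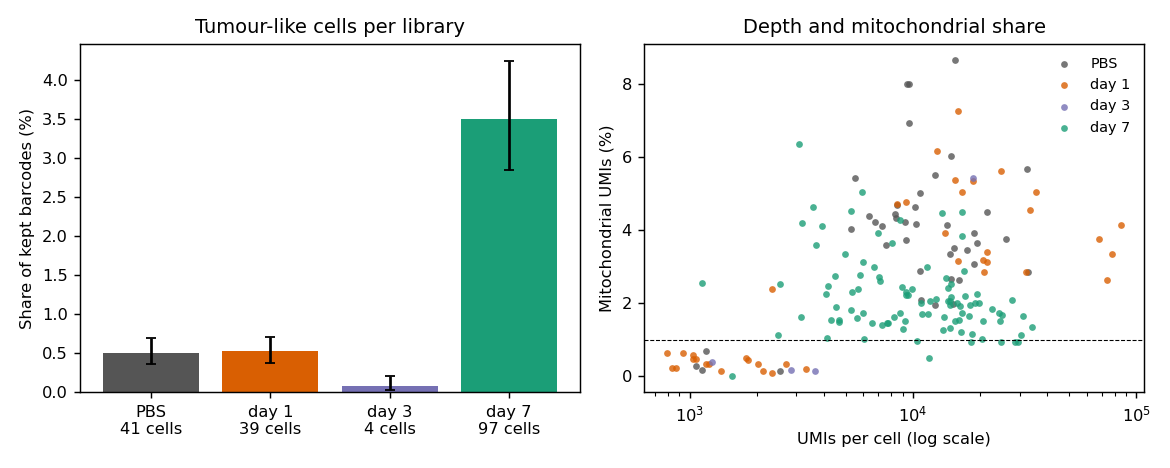
Left: tumour-like cells as a percentage of kept barcodes in each library, with 95% Clopper-Pearson intervals, from 0.0806% on day 3 to 3.50% on day 7. Right: each point is 1 of the 181 cells, placed by its UMIs (log scale) and its mitochondrial UMI percentage. The dashed line marks 1%, and 17 of the 39 day 1 cells lie below it.

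Each rule gene was found in most of the cells. Cdkn2a, whose transcripts encode the cell cycle inhibitors p16 and p19Arf, was detected in 166 of the 181 cells. Dlk1, a fetal transmembrane ligand of the Notch family, was detected in 155. Hmga2, a chromatin protein of embryonic and tumour cells, was detected in 145. Fst, the activin-binding protein follistatin, was detected in 121. All 4 genes were present together in 91 cells, 43 cells had 3 of them and 47 had 2. The cells with 4 of them were the deepest, with a median of 15309 UMIs against 4090 in those with 2. The 47 cells just inside the limit held 9.18 UMIs of the 4 genes per 10000. The 252 Ptprc-free barcodes just outside it, with 1 gene, held 1.97. Both sets were chosen by how many of these genes were detected, so that difference is set by the choice. The median share of UMIs from 12 macrophage genes was 0.578% in the 47 cells and 3.65% in the 252 barcodes. Outside the Ptprc limit, 192 barcodes had at least 2 of the 4 genes and at least 1 UMI of Ptprc, and the 70 of them with exactly 1 had a median macrophage share of 0.361%. All 192 count among the other kept barcodes in the comparisons below.

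Dlk1 had a summed level of 468 CPM after PBS, then 423, 417 and 1148 CPM on days 1, 3 and 7, where CPM are UMIs per 1000000 UMIs of the tumour-like cells. Cdkn2a stood at 414, 393, 303 and 921 CPM. For Hmga2 the values were 633, 585, 227 and 449 CPM, and for Fst 1066, 499, 189 and 1234 CPM. Dlk1 and Cdkn2a were highest on day 7, Fst was high after PBS and on day 7, and Hmga2 was not highest on day 7. The 4 cells of day 3 hold 26409 UMIs in all, so their values rest on few counts: 6 UMIs for Hmga2 and 5 for Fst.

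The 3 other libraries gave 502066 (PBS), 671460 (day 1) and 1167706 (day 7) UMIs from tumour-like cells, with median depths of 10765, 9298 and 10456 UMIs per cell against 6326.5, 9118 and 5017 in the other kept barcodes. No barcode of a tumour-like cell occurred in a second library. Of the 39 day 1 cells, 17 had under 1% mitochondrial UMIs, against 4 of 41 after PBS and 7 of 97 on day 7, and 2.07% of the other day 1 barcodes. These 17 cells were shallow, with a median of 1223 UMIs against 20742.5 in the remaining 22. Malat1, a nuclear RNA, made up a median of 0.282% of their UMIs against 2.31% in the 22, and ribosomal protein genes made up 27.8% against 19.9%. The day 1 library also held the deepest cells, and its 3 largest gave 35.3% of its tumour-like UMIs.

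Leukocyte genes were low throughout. Their per-library UMI sums were compared with those of all other kept barcodes by edgeR's quasi-likelihood test with the library as a block, in the 3 libraries with at least 10 tumour-like cells (PBS, day 1 and day 7; the 4 cells of day 3 were left out). Among 11822 genes tested, 2785 were higher (23.6%) and 3753 lower (31.7%) at an adjusted p under 0.05, and the median log2 fold change was -0.13. Scaling by the upper quartile instead moved the median to 0.10 and gave 3515 higher and 3079 lower genes, so that 53.3% of the calls were higher instead of 42.6%, and fold changes are to be read relative to that shift. All 10 genes of the pan-leukocyte list, all 12 of the macrophage list and all 10 of the T and NK cell list were lower, with medians of -4.11 and -4.02 for the first and the second list. Coro1a, a leukocyte actin regulator, stood at 29.9, 40.2 and 35.1 CPM in the PBS, day 1 and day 7 tumour-like cells and at 619, 529 and 464 CPM in the others (log2 fold change -4.31, SE 0.18, adjusted p = 9.45e-10). The T cell receptor constant gene Trac had 2 UMIs and the NK cell receptor genes Ncr1 and Klrb1c had 0 in all tumour-like cells together. Of the lists for further cell types, all 5 tested mast cell genes were lower, as were both tested neutrophil, red cell and pericyte genes. The dendritic cell list had 1 gene higher and 1 lower, and the endothelial list had Plvap higher, Pecam1 and Kdr lower and Cdh5 at 0 UMIs.

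Transcripts of 2 of the proteins that define the sort gate were low as well. Thy1, which encodes CD90, had 0, 3, 0 and 12 UMIs in the PBS, day 1, day 3 and day 7 cells, and the 12 UMIs of day 7 came from 5 of 97 cells. Il7r, which encodes CD127, had 4, 6, 0 and 0 UMIs. Both were lower than in the other kept barcodes (Thy1 log2 fold change -2.87, SE 0.38, adjusted p = 2.39e-05; Il7r log2 fold change -3.76, SE 0.44, adjusted p = 7.87e-06). A count of 0 in the 1167706 UMIs of day 7 allows up to 2.57 CPM of Il7r, against 19.4 CPM in the other barcodes of that library.

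Macrophage transcripts were nonetheless found at a low level. Their median share was 0.305%, 0.467%, 0.139% and 0.310% of UMIs per cell in the 4 libraries, against 3.77%, 3.91%, 2.32% and 4.33% in the other barcodes. Lyz2, lysozyme of myeloid cells, was detected in 41 of 41, 37 of 39, 4 of 4 and 96 of 97 tumour-like cells. In 13 cells the macrophage share was above 1%, with a highest value of 10.2% on day 7. Whether they came from RNA of other cells, and their part in each result, was not tested. The same test among barcodes with at most 1% macrophage UMIs, tumour-like or not, is given where it changes a direction or many calls. Under that limit the other barcodes number 739, 776 and 281, and 1589 of 9067 genes were higher and 1862 lower.

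Epithelial genes were at or near 0 and most mesenchymal genes were higher. Epcam, the keratins Krt7, Krt8, Krt18 and Krt19, the claudins Cldn3, Cldn4 and Cldn7 and the epithelial splicing factor Esrp1 had 0 UMIs in all 181 cells, while Cdh1, E-cadherin, had 1. The surfactant genes Sftpa1, Sftpb, Sftpc and Sftpd and the lung regulator Nkx2-1 also had 0. The junction protein gene Tjp1 alone of the 12 epithelial genes could be tested, and it was higher (log2 fold change 4.37, SE 0.39, adjusted p = 6.37e-07). Of the 11 genes of the mesenchymal transition list, 8 were higher, 2 were lower (Zeb2 and S100a4) and Fn1 did not pass. Among all genes 23.6% were higher and 31.7% lower. Twist1, a transcription factor of mesenchyme, stood at 281, 301, 189 and 232 CPM in the PBS, day 1, day 3 and day 7 cells against 4.15, 7.25, 1.91 and 6.63 CPM in the others. The summed level was higher in every library (log2 fold change 5.12, SE 0.21, adjusted p = 9.15e-10), while by cell Twist1 was detected in 31 of 41 PBS tumour-like cells and in 105 of the 8034 other PBS barcodes. Prrx1, a homeobox factor of limb and facial mesenchyme, had 480, 411, 530 and 263 CPM against 8.04, 13.2, 5.09 and 8.66 CPM (log2 fold change 4.85, SE 0.21, adjusted p = 1.3e-09). Cdh2, N-cadherin, had 25.9, 44.7, 37.9 and 46.2 CPM against 0.619, 1.19, 0.491 and 1.08 CPM (log2 fold change 4.92, SE 0.36, adjusted p = 1.19e-07). Vim, vimentin, was higher by 0.45 against all other barcodes, but stood at -0.21 against barcodes with at most 1% macrophage UMIs.

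**Figure D2:**
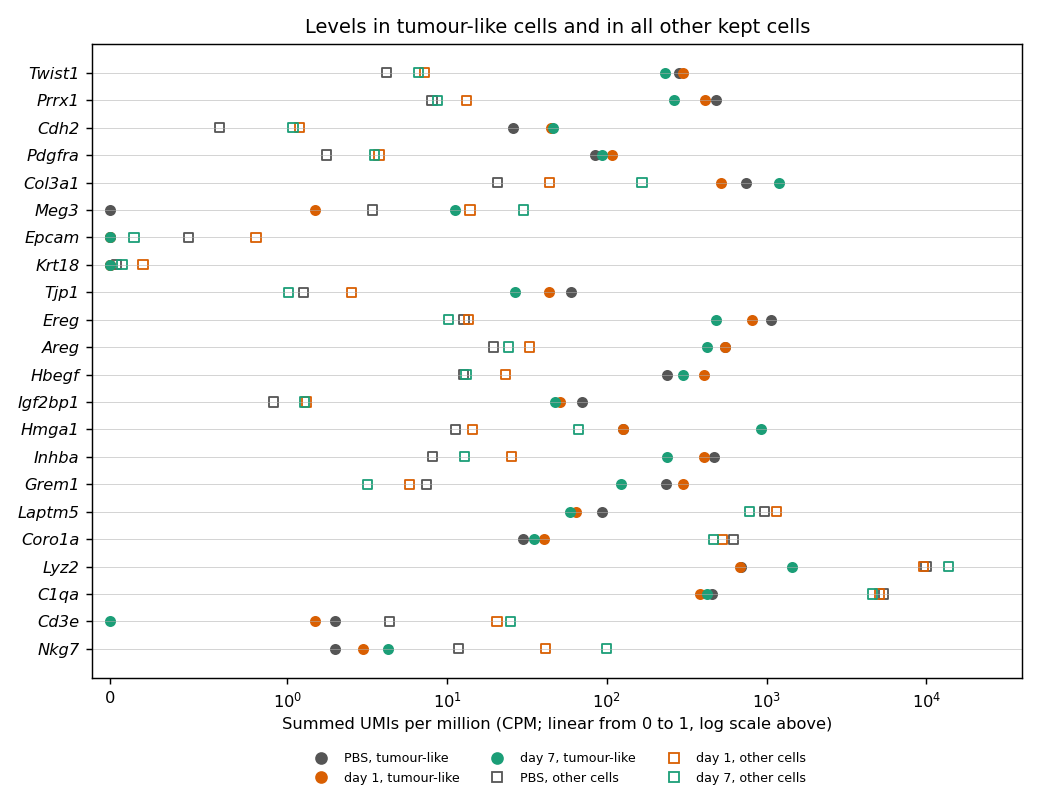
Summed level (CPM; linear from 0 to 1 and log scale above) of 22 genes in tumour-like cells (filled circles) and in all other kept barcodes (open squares) of the PBS, day 1 and day 7 libraries. The mesenchymal, growth factor and oncofetal genes lie to the right in the tumour-like cells, leukocyte genes lie to the left, and Epcam and Krt18 are at 0 in them.

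Of the 16 matrix and fibroblast genes, 10 were higher, Postn and Meg3 were lower, and Col1a1, Lum, Fap and Acta2 did not pass. Among all genes 23.6% were higher and 31.7% lower. Col3a1, a fibrillar collagen chain, had 743, 517, 2007 and 1193 CPM in the PBS, day 1, day 3 and day 7 cells against 20.7, 43.5, 21.4 and 166 CPM (log2 fold change 3.42, SE 0.33, adjusted p = 1.37e-06). Pdgfra, a receptor for platelet-derived growth factor, had 83.7, 107, 227 and 93.3 CPM against 1.75, 3.74, 0.925 and 3.52 CPM (log2 fold change 4.62, SE 0.25, adjusted p = 6.86e-09). Fap, the fibroblast activation protease, had 1 UMI and Postn, periostin, had 12, 11 of them in 1 day 7 cell. With at most 1% macrophage UMIs, 6 of 15 tested matrix genes were higher and 3 lower, Col1a1 among the latter. In that setting 1589 of 9067 genes were higher and 1862 lower.

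A further class, chosen by collagen and fibroblast genes, was the 52 Ptprc-free barcodes with fewer than 2 rule genes and at least 3 of 6 such genes, numbering 21, 8, 8 and 15 in the 4 libraries. It was not free of leukocyte RNA: the 12 macrophage genes made up a median of 1.31%, 2.49%, 2.91% and 0.484% of UMIs per cell, on day 3 more than in the other barcodes. Only the PBS and day 7 libraries had 10 cells of each class, so values are given without a test. Mesenchymal genes were found in the collagen class too. There Prrx1 had 456 CPM in the PBS library and 221 CPM in that of day 7, against 480 and 263 CPM in the tumour-like cells. Snai1, a transcription factor of mesenchymal transition, stood at 138 and 139 CPM in the collagen class and at 47.8 and 68.5 CPM in the tumour-like cells. Twist1 stood at 121 and 75.7 CPM against 281 and 232 CPM, and Col3a1 at 1877 and 8190 CPM against 743 and 1193 CPM. The growth factor gene Ereg, at 336 and 139 CPM, was likewise found in the collagen class, while Igf2bp1 had 0 UMIs in it in both libraries.

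Dlk1 and Meg3, a noncoding RNA, are neighbouring genes of an imprinted region of chromosome 12, where normally the paternal copy expresses Dlk1 and the maternal copy Meg3. In mm10, Dlk1 lies at chr12:109452823-109463336 and Meg3 begins 77665 bases beyond its end. The tumour-like cells held 14 UMIs of Meg3 in 2 cells, 13 of them in 1 day 7 cell without Dlk1, and 1871 UMIs of Dlk1 in 155 cells. The collagen class held 388 UMIs of Meg3 in 11 of its 52 cells and 0 of Dlk1. Both classes were chosen in part by Dlk1, so its difference between them is set by the choice. Against all other barcodes Meg3 was lower in the tumour-like cells (log2 fold change -2.30, SE 0.45, adjusted p = 0.000731). Few of those others held it: 15 of 8034 after PBS, 130 of 7445 on day 1 and 21 of 2674 on day 7. The collagen class, which is among them, held 341 of their 445 UMIs on day 7. After PBS the others had 3.41 CPM, while 0 UMIs in the tumour-like cells allow up to 5.98 CPM. Grb10, an imprinted growth regulator, was higher than in all other barcodes (log2 fold change 4.20, SE 0.50, adjusted p = 9.38e-06). Grb10 stood at 31.9 and 29.1 CPM in the PBS and day 7 tumour-like cells and at 25.8 and 37.8 CPM in the collagen class, the latter from 3 and 6 UMIs.

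Of the 4 oncofetal genes that could be tested, Igf2bp1, Igf2bp2 and Hmga1 were higher, and Igf2bp3 did not pass. Among all genes 23.6% were higher and 31.7% lower. Igf2bp1, an RNA-binding protein of fetal tissue, had 69.7, 50.6, 37.9 and 47.1 CPM in the tumour-like cells and 0.919, 1.31, 0.462 and 1.29 CPM in the others (log2 fold change 5.17, SE 0.34, adjusted p = 3.99e-08). The pluripotency RNA-binding genes Lin28a and Lin28b had 0 UMIs, and so had the fetal growth genes Igf2 and H19.

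Of the ligands of the epidermal growth factor receptor family, Ereg, Areg, Btc and Hbegf were higher in the tumour-like cells, Ereg and Btc among the 20 largest rises. Ereg, epiregulin, had 1068, 809, 1060 and 480 CPM in the PBS, day 1, day 3 and day 7 cells, against 12.7, 13.6, 7.11 and 10.2 CPM in the others (log2 fold change 5.55, SE 0.19, adjusted p = 4.66e-10). It was detected in 35 of 41, 27 of 39, 4 of 4 and 75 of 97 cells. Areg, amphiregulin, had 552, 547, 303 and 426 CPM against 19.5, 32.8, 52.1 and 24.2 CPM (log2 fold change 3.93, SE 0.18, adjusted p = 1.63e-09). Btc, betacellulin, had 71.7, 131, 37.9 and 31.7 CPM against 1.06, 1.86, 0.896 and 1.02 CPM (log2 fold change 5.43, SE 0.33, adjusted p = 1.7e-08). These 3 genes are neighbours on chromosome 5 in mm10 (Ereg at chr5:91074622-91093646, Areg at chr5:91139599-91148432 and Btc at chr5:91357261-91402994). Epgn, the epigen gene beside them at chr5:91027464-91035215, had 0 UMIs in the tumour-like cells. Hbegf, another ligand, lies on a different chromosome and had 239, 405, 530 and 298 CPM against 12.6, 23.1 and 13.1 CPM in the PBS, day 1 and day 7 others (log2 fold change 3.88, SE 0.16, adjusted p = 9.15e-10). For all 4 ligands the tumour-like value exceeded that of the other barcodes in every library.

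Transcripts of the receptors were few. Egfr, the receptor gene itself, had 1 UMI in all tumour-like cells and between 0.607 and 1.08 CPM in the other barcodes. Erbb2, its partner without a ligand of its own, had 4, 6, 0 and 13 UMIs and was higher (log2 fold change 4.71, SE 0.55, adjusted p = 8.24e-06). Erbb3 had 1 UMI, and Erbb4 had 0. Of the further ligand genes, Tgfa had 3 UMIs and Egf 1, too few to test, and Nrg1, neuregulin, was lower (log2 fold change -1.73, SE 0.36, adjusted p = 0.00104). The receptor genes and all ligands outside the RAS output list were looked up after the values of Ereg and Areg had been seen.

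Of the 16 genes of the RAS output list 10 were higher, against 23.6% of all genes, 4 were lower, against 31.7%, and 2 did not pass. The higher ones include Etv4, a transcription factor of the MAP kinase pathway (log2 fold change 4.92, SE 0.31, adjusted p = 2.54e-08), the feedback inhibitor Spry4 (log2 fold change 4.87, SE 0.37, adjusted p = 1.55e-07) and the AP-1 subunit gene Fosl1 (log2 fold change 4.03, SE 0.23, adjusted p = 1.07e-08). Fosl1 stood at 110, 101, 189 and 149 CPM against 3.38, 4.98, 5.89 and 9.14 CPM. The lower ones are the phosphatases Dusp4 and Dusp5, the inhibitor Spry1 and Etv5. Etv5 was higher by 0.82 against barcodes with at most 1% macrophage UMIs, so its direction depends on the comparison. The mouse Hras gene did not pass (log2 fold change -0.04, SE 0.15, adjusted p = 0.857).

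In the activin and BMP list, 9 of 14 tested genes were higher and Gdf15 and Smad7 lower, against 23.6% and 31.7% of all genes. Inhba, the activin A subunit that follistatin binds, had 470, 407, 265 and 239 CPM in the PBS, day 1, day 3 and day 7 cells against 8.08, 25.2, 42.2 and 12.8 CPM (log2 fold change 4.28, SE 0.30, adjusted p = 6.49e-08). Grem1, a secreted BMP antagonist, had 235, 301, 909 and 122 CPM against 7.44, 5.79, 1.82 and 3.18 CPM (log2 fold change 4.92, SE 0.21, adjusted p = 1.01e-09), with all 24 UMIs of day 3 in 1 cell. Bmp2, a BMP ligand, was also higher (log2 fold change 4.73, SE 0.26, adjusted p = 7.44e-09), as was Id1, a common BMP target (log2 fold change 3.52, SE 0.24, adjusted p = 4.52e-08). These 4 genes were higher in all 4 libraries.

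The 20 genes with the largest rise against the other barcodes, under the rule for named genes, were Cavin4, Msln, Fbn2, Ereg, CT025619.1, Meis2, Sema5a, Chrna1, Stc1, Pthlh, Btc, Mecom, Lrch2, Hoxb9, Mboat2, Sox2, Ttll7, Adgrl3, Fetub and Ank3, with log2 fold changes of 5.24 to 6.12. The transcription factors Meis2, Hoxb9, Mecom and Sox2 among them are known from embryonic patterning and stem cells. Sox2 had 177, 119, 37.9 and 99.3 CPM in the PBS, day 1, day 3 and day 7 cells, against 2.05, 2.28 and 3.65 CPM in the PBS, day 1 and day 7 others (log2 fold change 5.25, SE 0.30, adjusted p = 9.67e-09). Others encode secreted hormones or a surface antigen. Stc1, stanniocalcin, had 556, 490 and 500 CPM in the PBS, day 1 and day 7 cells against 5.30, 9.63 and 12.7 CPM (log2 fold change 5.48, SE 0.25, adjusted p = 1.69e-09). Pthlh, parathyroid hormone-related protein, had 151, 62.6 and 274 CPM against 0.955, 1.58 and 7.65 CPM (log2 fold change 5.44, SE 0.36, adjusted p = 3.69e-08). Msln, mesothelin, had 23.9, 99.8 and 48.0 CPM against 0.124, 0.942 and 2.03 CPM (log2 fold change 5.67, SE 0.51, adjusted p = 7.17e-07). On day 1 its 67 UMIs came from 7 of 39 cells, 26 of them from 1 cell, and it stood at 68.0 CPM without that cell. Likewise on day 1, 1 cell held 21 of 42 UMIs of Pthlh, 28 of 59 of Cavin4 and 19 of 23 of Chrna1. The 329 UMIs of Stc1 on day 1 came from 24 cells. The 10 genes with the largest fall all had 0 UMIs in the tumour-like cells, so no fold is given for them. They include Cd207, langerin, at 47.6, 51.1 and 23.2 CPM in the other barcodes, and Tsix, the antisense partner of Xist.

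Xist, the RNA that silences 1 X chromosome in female cells, was looked up because of Tsix, after its value was known. Xist had 67.7, 65.5, 37.9 and 35.1 CPM in the tumour-like cells and 683, 955, 819 and 618 CPM in the others, with log2 fold change -4.21 (SE 0.18, adjusted p = 1.09e-09). It was detected in 13 of 41, 15 of 39, 1 of 4 and 13 of 97 tumour-like cells. The Y-linked genes Ddx3y, Kdm5d and Eif2s3y had 0 UMIs in both classes of all 4 libraries, and Uty had 0 in the tumour-like cells and at most 2 per library in the others. Xist and Tsix overlap on opposite strands, and the counting's use of strand is not given in the sources used here.

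**Figure D3:**
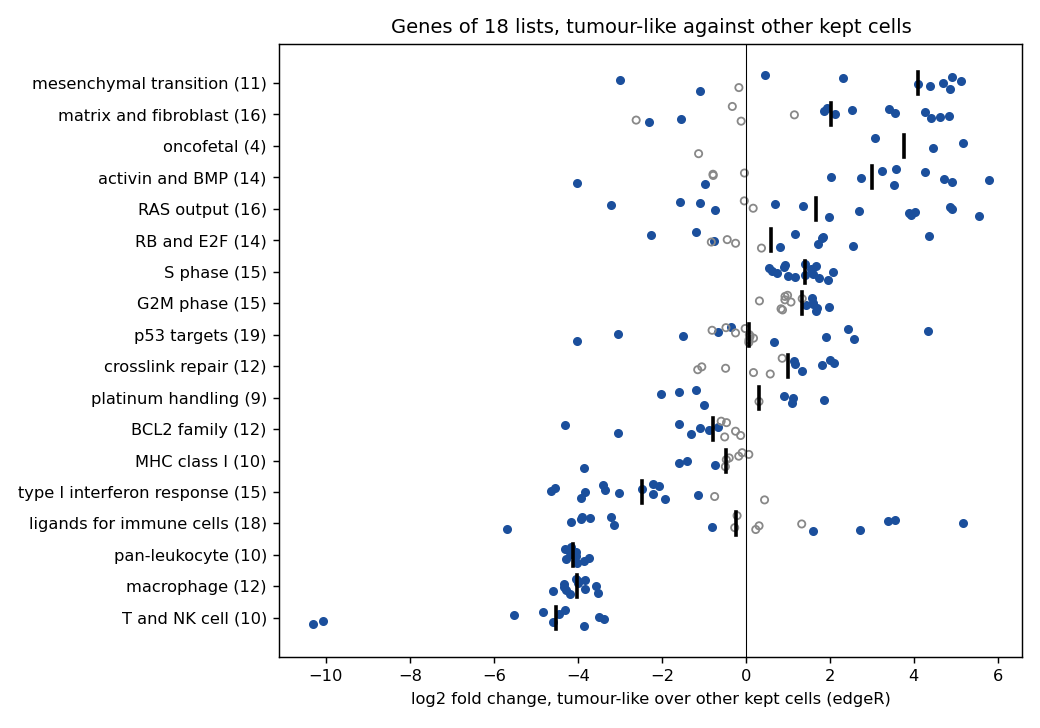
Log2 fold change of tumour-like cells over other kept barcodes for the tested genes of 18 lists, 1 point per gene, with the number tested in brackets, filled points for an adjusted p under 0.05 (edgeR) and a black bar at the list median. The leftmost points of the T and NK cell list belong to genes with 0 UMIs in the tumour-like cells and are no estimate of a fold. All points of the pan-leukocyte, macrophage and T and NK cell lists lie left of 0, and all S phase points lie right of it.

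Genes of the retinoblastoma pathway split in the tumour-like cells. Of the 14 tested, 7 were higher and 3 lower, against 23.6% and 31.7% of all genes. Cdkn2b, the inhibitor gene next to Cdkn2a, had 81.7, 73.0, 114 and 88.2 CPM in the 4 libraries against 1.91, 3.09, 1.47 and 4.26 CPM (log2 fold change 4.35, SE 0.28, adjusted p = 2.64e-08). Cdk4, the kinase these inhibitors bind (log2 fold change 1.81, SE 0.14, adjusted p = 2.37e-07), and the cyclin E gene Ccne2 (log2 fold change 2.55, SE 0.26, adjusted p = 2.12e-06) were also higher. Ccnd1, cyclin D1, was lower (log2 fold change -0.76, SE 0.16, adjusted p = 0.00143). Under the limit of 1% macrophage UMIs 5 of 14 genes of this list were higher, and Rbl2, Cdk6 and Ccnd2 were lower. In that setting 1589 of all 9067 tested genes were higher and 1862 lower. Ccnd1 was not called there, and Rb1 went from -1.17 to 0.10. All 15 S phase genes were higher, with a median of 1.40, for example Tyms, thymidylate synthase, at 183, 201 and 233 CPM in the PBS, day 1 and day 7 cells against 55.0, 24.8 and 37.0 CPM (log2 fold change 2.07, SE 0.22, adjusted p = 3.4e-06). Of the 15 G2M genes 7 were higher, against 23.6% of all genes, and none was lower. Against barcodes with at most 1% macrophage UMIs, 8 S phase genes and 0 G2M genes were higher and none was lower.

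Of 12 tested genes for repair of crosslinks 6 were higher and none lower, against 23.6% and 31.7% of all genes. Ercc1, a subunit of an excision nuclease, was among the higher ones. It had 97.6, 98.3 and 80.5 CPM in the PBS, day 1 and day 7 cells against 19.3, 18.1 and 21.7 CPM (log2 fold change 1.81, SE 0.20, adjusted p = 4.76e-06). In the hypoxia and glycolysis list 5 of 13 genes were higher and 4 lower, the latter near the 31.7% of all genes. Under the limit of 1% macrophage UMIs, 6 of 11 tested genes of that list were higher and 1, Pfkp, was lower. Among all 9067 genes tested under that limit, 1589 were higher and 1862 lower. Of the 9 tested genes of platinum handling, Gstp1, Mt1, Mt2 and Gclm were higher, and Slc31a1, Atp7a, Atox1 and Abcc1 were lower. That is 4 of 9 in each direction, against 23.6% and 31.7% of all genes. Under the limit of 1% macrophage UMIs the same 4 were higher, and only Atox1 and Abcc1 were lower. Atox1, a copper chaperone, had 420, 276 and 330 CPM against 1077, 1001 and 991 CPM (log2 fold change -2.01, SE 0.13, adjusted p = 3.93e-08). Mt1, a metallothionein, had 1524, 2346 and 1523 CPM against 748, 697 and 657 CPM (log2 fold change 0.92, SE 0.15, adjusted p = 0.000136). Slc31a1, the copper importer, was at 0.17 against barcodes with at most 1% macrophage UMIs.

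Of 19 tested p53 targets 5 were higher, 5 lower and 9 did not pass, shares near the 23.6% and 31.7% of all genes. Under the limit of 1% macrophage UMIs, 4 of 18 were higher and 2 lower, where 1589 of all 9067 genes were higher and 1862 lower. Phlda3 (log2 fold change 2.44, SE 0.32, adjusted p = 2.3e-05) and Eda2r (log2 fold change 4.35, SE 0.48, adjusted p = 5.08e-06) were higher, while Cdkn1a, p21, was lower against all others (log2 fold change -0.36, SE 0.12, adjusted p = 0.0241) and at 0.28 against barcodes with at most 1% macrophage UMIs. In the BCL2 family 7 of 12 genes were lower, against 31.7% of all genes, and none higher. The lower ones were the survival genes Mcl1 and Bcl2a1b and the death genes Bax, Bak1, Bcl2l11, Bid and Pmaip1. Under the limit of 1% macrophage UMIs, 4 of 11 tested were lower (Mcl1, Bcl2a1b, Bak1 and Pmaip1) and Bcl2l1 was higher. Bcl2a1b belongs to a cluster of near-identical genes, so its counts are uncertain.

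For MHC class I, where 31.7% of all genes were lower, 4 of 10 were lower (Tapbp, Psmb8, Psmb9 and H2-T23) and none higher, while the heavy chains H2-K1 (log2 fold change -0.09, SE 0.12, adjusted p = 0.575) and H2-D1 (log2 fold change 0.07, SE 0.11, adjusted p = 0.616) did not pass. The counts of H2-K1, H2-D1 and H2-T23 are uncertain because these genes share sequence. Under the limit of 1% macrophage UMIs, Tapbp, Psmb8, Psmb9 and H2-T23 were again lower, and B2m was higher. All genes tested under that limit numbered 9067, with 1589 higher and 1862 lower. Of 15 type I interferon genes 13 were lower, against 31.7% of all genes in the main comparison, and Cxcl10 and Ifi44 did not pass. Under the same limit 9 of 14 tested interferon genes were lower and Cxcl10 was higher. Among 18 tested ligands, 5 were higher and 8 lower, against 23.6% and 31.7% of all genes. Under the same limit 7 of 15 tested ligands were higher and 5 lower. Csf1, the growth factor of macrophages, had 51.8, 96.8, 75.7 and 70.2 CPM against 3.73, 7.17, 5.98 and 3.38 CPM (log2 fold change 3.56, SE 0.25, adjusted p = 7.52e-08). Raet1e, a ligand of the NK cell receptor NKG2D, had 31.9, 40.2 and 38.5 CPM in the PBS, day 1 and day 7 cells against 5.14, 3.99 and 3.65 CPM (log2 fold change 2.73, SE 0.31, adjusted p = 6.57e-06). Il33, an alarmin, was higher (log2 fold change 5.16, SE 0.65, adjusted p = 1.58e-05), but 25 of its 33 UMIs after PBS came from 1 of 41 cells. Cd274, which encodes PD-L1, had 1 UMI in all tumour-like cells (log2 fold change -5.69, SE 0.71, adjusted p = 1.48e-05).

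On day 1 after cisplatin the tumour-like cells held far more mitotic transcripts than after PBS. The 15 G2M genes together stood at 884, 4393, 985 and 1533 CPM in the PBS, day 1, day 3 and day 7 cells. In the other kept barcodes they stood at 1152, 356, 263 and 539 CPM, so the order of PBS and day 1 was opposite in the 2 classes. Day 1 was compared with PBS by the log2 ratio of CPM for genes with at least 20 UMIs over both libraries. Of the 15 G2M genes 14 were at least 2-fold higher and none 2-fold lower, with a median of 2.24. Over all 6542 such genes 6.27% were at least 2-fold higher and 2.74% lower, and the median was 0.04. In the other barcodes all 15 were at least 2-fold lower, with a median of -1.77.

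Ube2c, the conjugating enzyme of the anaphase-promoting complex, stood at 118 CPM in the PBS cells and 1390 CPM in those of day 1 (log2 ratio 3.56, 95% interval 3.18 to 3.97). In the other barcodes it had 182 and 69.5 CPM (-1.39). Its UMIs came from 18 of 41 cells after PBS and 28 of 39 on day 1, so the difference is not that of a single cell. Top2a, topoisomerase II alpha, had 114 and 536 CPM, a ratio of 2.24 (1.83 to 2.67). Cdk1, the mitotic kinase, had 57.8 and 326 CPM, a ratio of 2.50 (1.93 to 3.11). Plk1, polo-like kinase, had 1 UMI after PBS and 30 on day 1. The smallest ratio of the list was that of Ccnb2, cyclin B2, at 0.64 (0.03 to 1.29). The spindle genes Nusap1 (3.39, 2.21 to 4.87) and Kif2c (3.34, 1.90 to 5.26), outside the list, were also among the 8 highest genes of day 1, as were Cenpf and Mmp19, a matrix protease. Mmp19 had 1 UMI after PBS and 33 on day 1, 16 of them in 1 cell. Unlike the mitotic genes it was also higher on day 1 in the other barcodes, at 20.3 and 42.1 CPM.

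Cell by cell, G2M genes made up between 0 and 0.618% of UMIs after PBS, with a median of 0.0276%, and between 0 and 1.56% on day 1, with a median of 0.379%. On day 7 they ranged from 0 to 0.973%, with a median of 0.0274%. At least 0.2% was reached by 6 of 41 cells after PBS, 27 of 39 on day 1, 2 of 4 on day 3 and 19 of 97 on day 7. That limit was set after the values were seen, and 2, 3, 0 and 8 cells lie within 0.05 of it. After thinning each cell to 2000 UMIs and leaving out shallower ones, 10 of 38, 18 of 27, 1 of 3 and 25 of 95 cells had at least 3 G2M UMIs. Without thinning the shares among these cells were 57.9%, 85.2%, 100% and 54.7%. The thinned shares in the other barcodes were 17.5%, 4.22%, 2.78% and 9.06%. The 95% Clopper-Pearson intervals of the tumour-like cells lay above these on day 1 (46.0% to 83.5%) and day 7 (17.8% to 36.4%) and included them after PBS (13.4% to 43.1%) and on day 3. The level was high in both kinds of day 1 cell, with a median of 0.379% in the 17 with under 1% mitochondrial UMIs and 0.459% in the other 22. On day 7 the 7 cells under 1% had a median of 0.501% and the other 90 had 0.0243%, and on day 3 the values were 0.316% in 3 cells and 0.0214% in 1. After PBS they were 0.0392% in 4 cells and 0.0276% in 37. The part of the low mitochondrial share in the G2M difference was not tested.

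The G2M difference depended on the Ptprc limit. Barcodes with at least 2 rule genes and at least 1 UMI of Ptprc had 2007 CPM of G2M genes after PBS and 2587 CPM on day 1, and with them included the list median was 0.74. Those among them with at most 1% macrophage UMIs had 2082 CPM after PBS (24 cells) and 3938 CPM on day 1 (33 cells). In the other settings tried, the median lay between 2.06 and 2.70. Median depth was 19975.5 and 33603 UMIs in those 2 sets, against 10765 and 9298 in the tumour-like cells.

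**Figure D4:**
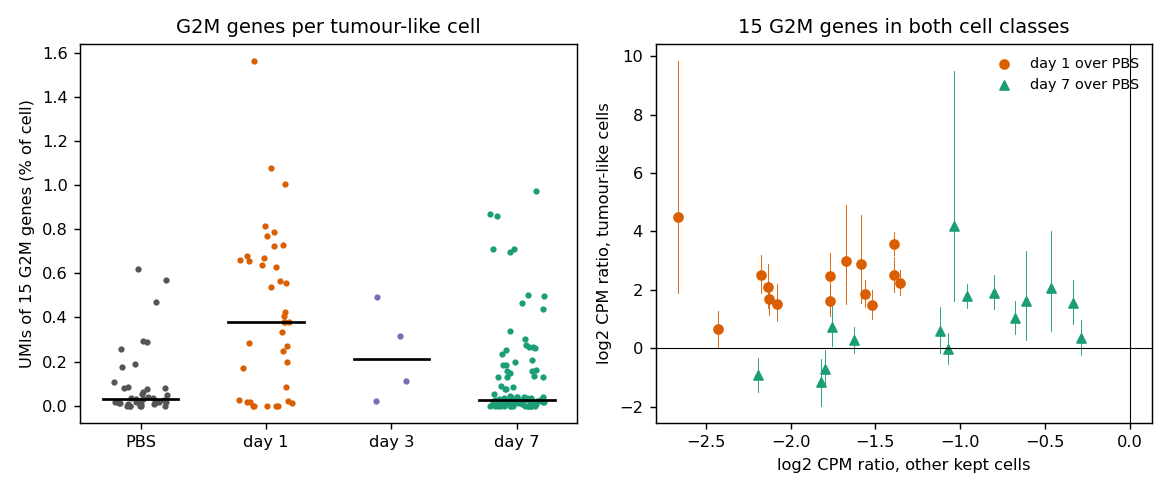
Left: percentage of each tumour-like cell's UMIs that come from 15 G2M genes, 1 point per cell, with a bar at the median of each library (0.0276% after PBS, 0.379% on day 1). Right: log2 CPM ratio over PBS of the 15 genes in tumour-like cells (vertical axis, with 95% counting intervals) against that in the other kept barcodes. All 15 day 1 points lie above 0 on the vertical and below 0 on the horizontal axis. Both days share the PBS library.

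S phase genes did not share this pattern. Their day 1 median was -0.50 in the tumour-like cells, with 1 of 15 genes at least 2-fold higher and 2 lower, and -0.89 in the others. Mcm6, a subunit of the replicative helicase, had 147 CPM after PBS and 61.1 CPM on day 1 (-1.27, -1.86 to -0.70), whereas Rrm2, of ribonucleotide reductase, had 59.8 and 139 CPM (1.21, 0.61 to 1.86). After thinning, at least 3 S phase UMIs were found in 23 of 38 cells after PBS, 15 of 27 on day 1 and 62 of 95 on day 7.

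For p53 targets the day 1 median was 0.38 in the tumour-like cells and 0.88 in the other barcodes for the same 14 genes. Cdkn1a had 335 and 670 CPM in the tumour-like cells, a ratio of 1.00 (0.74 to 1.27), against 1.27 in the others. Phlda3 had 127 and 173 CPM, a ratio of 0.44 (-0.01 to 0.90), against 2.67 in the others. Zmat3 had 45.8 and 29.8 CPM (-0.62, -1.56 to 0.31) against 1.42. Eda2r, at 1.83 (0.24 to 3.84), and Ccng1, at 1.37 (0.67 to 2.12), lay near the values of the other barcodes, 2.06 and 1.20. The crosslink repair list had a median of 0.80 over 7 genes, with 1 gene at least 2-fold higher, and -0.49 in the others.

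Genes lower on day 1 were fewer. Mgp, matrix Gla protein, stood at 1840 CPM in the PBS cells and 457 CPM in those of day 1 (log2 ratio -2.01, -2.20 to -1.82), and 14.1 and 21.9 CPM in the others. A single PBS cell held 322 of its 924 UMIs, and without the highest cell of each library the ratio was -2.16. Cyr61, a matricellular protein, had 171 and 55.1 CPM (-1.64, -2.23 to -1.06), and Lox, the collagen crosslinking enzyme, had 75.7 and 20.9 CPM (-1.86, -2.86 to -0.94). Il11, a cytokine, had 77.7 and 20.9 CPM (-1.90, -2.89 to -0.98), and 0.021 without the Ptprc limit. A single PBS cell held 16 of its 39 UMIs, and without the highest cell of each library the ratio was -1.21. Acp5, tartrate-resistant acid phosphatase, had 61 UMIs after PBS and 6 on day 1, but 53 of the 61 came from 1 cell. Without the highest cell of each library its ratio went from -3.77 to -0.99.

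On day 7 after cisplatin the G2M median was 0.72 over PBS, with 7 of 15 genes at least 2-fold higher and 1 lower. In the other settings tried it lay between 0.19, with no limit on Ptprc, and 1.20, with at most 5% mitochondrial UMIs. It was 0.41 as means of per-cell CPM and 0.49 without the 3 deepest cells of each library. Over all 7577 genes 11.7% were at least 2-fold higher and 6.23% lower, and the median was 0.10. The genes differed among themselves. Ube2c had 402 CPM (1.77, 1.38 to 2.19) and Cdk1 215 CPM (1.90, 1.34 to 2.50), while Mki67, a proliferation antigen, had 51.4 CPM (-0.93, -1.49 to -0.35) and Hmmr had 24.8 CPM (-1.17, -1.97 to -0.36). The S phase median was 0.14 and that of p53 targets was 0.26.

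Several of the strongest day 7 differences were met in the other barcodes of the same library too. Hmga1, a chromatin protein related to Hmga2, had 125 CPM after PBS and 921 CPM on day 7 (2.88, 2.51 to 3.27), and 11.3 and 66.7 CPM in the others (2.56). Spry2, a feedback inhibitor of receptor kinases, had 27.9 and 286 CPM (3.36, 2.59 to 4.25), and 3.83 in the others. Notch2, a receptor, had 17.9 and 200 CPM (3.48, 2.53 to 4.63), and 2.63 in the others. Tpt1, a translation-related protein, had 8148 and 1871 CPM (-2.12, -2.20 to -2.05), and -1.80 in the others. B2m, the MHC class I light chain, had 2569 and 7468 CPM (1.54, 1.45 to 1.62), and 1.71 in the others. For these 5 genes the day 7 library differs from the PBS library in both classes of cells alike in direction.

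The matrix gene Mgp and the cytokine gene Il11 were lower on day 7 in the tumour-like cells and higher in the others. Mgp had 387 CPM (-2.25, -2.41 to -2.09) against a ratio of 1.61 in the others. Il11 had 9.42 CPM (-3.04, -4.16 to -2.05) against 1.51, and its ratio without the highest cell of each library was -2.60. The rule genes Cdkn2a and Dlk1 had day 7 ratios of 1.15 and 1.29 in the tumour-like cells and of 1.89 and 2.39 in the other barcodes. The tumour-like cells were chosen by these genes, so the values are given as a description only. The other barcodes include those with at least 2 rule genes and at least 1 UMI of Ptprc, 57 after PBS and 31 on day 7. Their part in these ratios was not tested.

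For some genes 1 cell held most of the day 7 UMIs, although they stayed higher without it and were higher in the other barcodes too. Col1a1 had 3 UMIs after PBS and 233 on day 7, 192 of them in 1 cell, a log2 ratio of 5.06 against 4.98 in the others. Without the highest cell of each library it stood at 4.16 and 35.7 CPM. Ccl5, a chemokine of lymphocytes and myeloid cells, had 2 UMIs after PBS and 112 on day 7, 78 of them in 1 cell. Its ratio went from 4.59 to 3.87 without the highest cells, against 2.45 in the others. H2-Aa, an MHC class II chain, had 3 UMIs after PBS and 121 on day 7, 73 of them in 1 cell. Its ratio went from 4.12 to 3.37, against 1.72 in the others. Without the highest cell, Ccl5 and H2-Aa stood at 2.01 and 4.04 CPM after PBS. The ratios of these genes therefore rest on very few PBS UMIs. Fxyd4, an ion transport regulator, had 0 and 64 UMIs, which gives at least a log2 ratio of 3.20 against a floor of 3 counts in the PBS cells, and it had 1.38 and 9.07 CPM in the others.

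**Figure D5:**
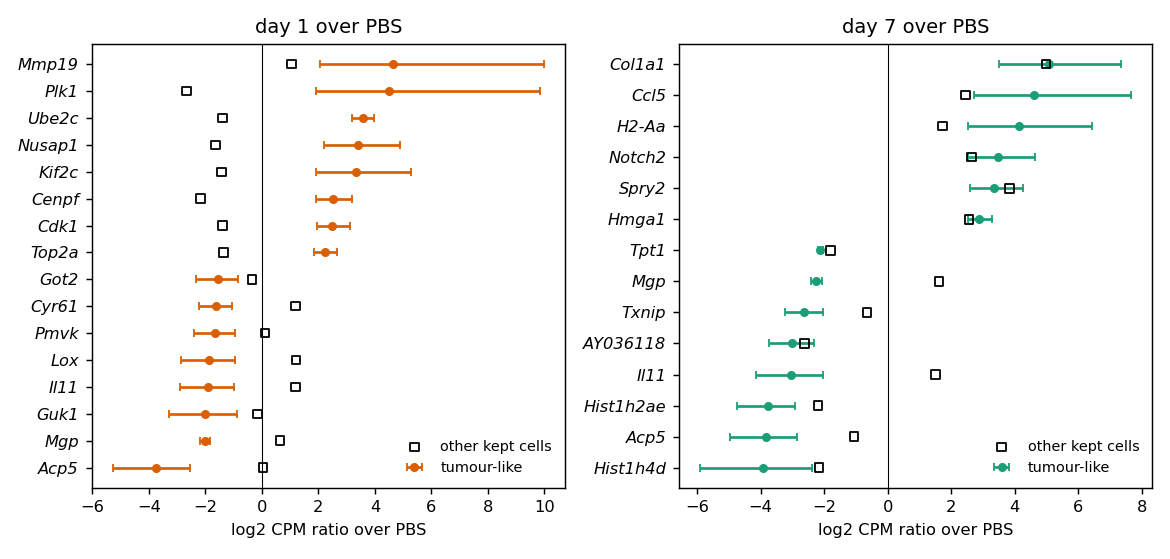
Log2 CPM ratio over PBS of the 8 highest and 8 lowest genes in tumour-like cells on day 1 (left) and day 7 (right), with 95% counting intervals, and the ratio in the other kept barcodes (open squares). Fxyd4 and Bhlhe41, with 0 UMIs after PBS, are not drawn. On day 1 the mitotic genes lie on opposite sides of 0 in the 2 classes, and on day 7 Hmga1, Spry2 and Tpt1 lie on the same side.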

How the data were processed

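Single-cell 3′ RNA libraries of 4 groups, 1 library each, were analysed from the UMI counts per gene and barcode that the authors deposited. Cell Ranger 3.1.0, Seurat 3.1.2 and the build mm10 are named in the submitters' processing notes, without their roles. Whether doublets had been removed is not given in the sources used here, and no column of the tables was left unused (0). Coordinates come from GENCODE vM21.

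Barcodes were kept from 500 genes upward and up to 10% mitochondrial UMIs. Counts were summed per library over the tumour-like cells and over all other kept barcodes, and the sums were tested with edgeR's quasi-likelihood test (TMM scaling, its own low-count filter, library as a block, Benjamini-Hochberg adjustment over all tested genes, threshold 0.05) in the libraries with at least 10 tumour-like cells. Days were compared without a test, by the ratio of CPM with exact conditional binomial 95% intervals, for genes with at least 20 UMIs over both libraries. A count of 0 was given a floor of 3 counts. In simulated counts (11377 genes, tumour-like cells against the rest), the test recovered 25 of 100 genes changed 2-fold and 93 of 100 changed 4-fold.

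The cells and the gene lists were chosen with earlier results of these data known. The genes named from the whole table are the 20 highest and 10 lowest significant fold changes of 1 direction in every library with at least 50 UMIs, and the 8 highest and 8 lowest of each day by the interval bound nearer to no change. Predicted genes and mitochondrial and ribosomal genes were left out of both. From each list the 4 genes with most UMIs could be named, and list genes outside that rule were named after their values had been seen. Alternatives covered scaling, tool, filters, the limits on barcodes, single libraries, and removal of the barcodes with the highest Scrublet scores at 0.8% per 1000 barcodes. Software was Python 3.11.15, numpy 2.4.6, pandas 2.3.3, scipy 1.17.1, scanpy 1.11.5, matplotlib 3.10.9, R 4.3.3, edgeR 4.0.16, limma 3.58.1 and DESeq2 1.42.0.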

Additional observations from a re-analysis of the deposited data

Results flagged for a closer look

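Barcodes removed by the limits on genes and mitochondrial UMIs also held cells with the tumour markers and no Ptprc, a signal in data outside the comparisons. Its share was above that of the control library on day 7 only, there from 4 barcodes. On day 7, 4 of 210 removed barcodes met the marker rule, or 1.90% (95% Clopper-Pearson interval 0.521% to 4.80%), against 21 of 1988 after PBS, or 1.06% (0.655% to 1.61%). The intervals overlap. On day 1 the share was 0.644% of 3261 and on day 3 it was 0.231% of 1300. The mitochondrial limit removed 20 of the 21 PBS barcodes, 20 of the 21 of day 1 and all 4 of day 7.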

How the results depend on the processing

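Against the other kept barcodes, leaving out 1 library at a time gave 1971 to 2700 higher and 2830 to 3527 lower genes, the fewest without day 7. Of 233 named and listed genes past the threshold, 32 missed it without day 7, 34 without the library block, 18 with DESeq2 and 41 among barcodes with at most 1% macrophage UMIs. Among the latter barcodes 161 of the 233 stayed the same and 7 changed sign, and the remaining ones had no result. That last setting, which tests fewer genes and cells, gave 1589 higher and 1862 lower genes, and Vim (-0.21), Rb1 (0.10), Mcm6 (-0.14), Cdkn1a (0.28), Etv5 (0.82), Slc31a1 (0.17) and Vegfa (0.0067) changed sign. No other setting reversed a gene of that comparison. The share of tumour-like cells with no limit on Ptprc was 1.21% after PBS and 1.76%, 0.302% and 4.62% on days 1, 3 and 7. It was 0.359% on day 1 with at least 1000 genes per barcode, and 0.294% on day 1 and 2.67% on day 7 with at least 3 rule genes.

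For day 1 against PBS, with no limit on Ptprc the G2M median was 0.74 and Il11 stood at 0.021. The interferon median was 0.71 among cells with at most 1% macrophage UMIs, the RAS output median was -0.54 and that of hypoxia -0.57 as means of per-cell CPM, hypoxia was -0.82 without the 3 deepest cells of each library, and matrix was -0.18 at 5% mitochondrial UMIs. For day 7 against PBS, the matrix median was 0.086 with at least 3 rule genes, and the macrophage median was -0.51 with at least 3 rule genes, -0.61 with no limit on Ptprc and -0.47 with at most 1% macrophage UMIs. The cause was not tested for these. The other 371 alternatives of main results stayed within their limits. Weighting by cell, the limit of 2000 UMIs, leaving out the 3 deepest cells and including day 3 were chosen after seeing the data. The alternatives for the collagen class were not run, since it had no test. No paired analysis was possible because each group has 1 library; the block used is the library that holds both classes of cells. Day 3, with 26409 UMIs from 4 cells, limits what can be said of that day.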
